A study of Homo sapiens with 6 samples.

Results

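Heat shock proteins and their J-domain cochaperones form the main protein folding machinery of human cells, and their mRNAs were followed in HCT116 colorectal cancer cells that overexpressed the kinase MST3. The set was defined by symbol and biotype, with earlier results of these data known. It holds the 75 protein-coding entries named HSPA, HSPB, HSPD1, HSPE1, HSPH1, HSP90 or DNAJ A, B or C with a number, of 58938 entries in the table. The 75 entries carry 74 symbols, since HSPA14 appears under 2 Ensembl identifiers, and DNAJC25-GNG10 and HSPB2-C11orf52 are readthrough genes.

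HCT116 is a long-established line of human colorectal carcinoma cells. The 3 MST3 libraries came from HCT116 cells transfected with a plasmid that overexpresses MST3 (gene STK24), and the 3 vector libraries from HCT116 cells that the labels call vector in their titles and WT in their genotype. Both groups were transfected by lipofection at 60% density, had fresh medium after 6 hours and gave RNA after 30 hours. No label or note names the promoter of the plasmid or the share of cells that took it up. In such bulk RNA, fewer cells of a kind and less RNA per cell cannot be told apart. The sources do not say whether each replicate was a culture of its own, and the p-values weigh differences against a spread that may be only technical.

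HSP70 proteins bind exposed hydrophobic stretches of unfolded chains and release them in a cycle driven by ATP. J-domain proteins (the DNAJ A, B and C classes) bring clients to HSP70 and trigger its ATPase, and HSP110 proteins act as nucleotide exchange factors. HSP90 matures kinases and other clients downstream of HSP70, small heat shock proteins hold unfolded chains without ATP, and HSPD1 with its lid HSPE1 forms the folding chamber of mitochondria. Under heat or proteotoxic stress the factor HSF1 binds heat shock elements and raises the cytosolic genes, while unfolded protein in the endoplasmic reticulum raises HSPA5, HSP90B1 and their partners.

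Promoter letters of some members are shown first, because they hold the elements named for the heat shock and the endoplasmic reticulum responses. RefSeq promoters on GRCh38.p14 were matched for 65 of the 74 symbols. For each symbol only the first listed promoter was used, and the 250 bases before its start were searched on both strands. Other starts of the same gene were not searched. The strict heat shock element, GAANNTTC followed after any 2 bases by GAA, was in 3 of the 65 member promoters (4.62%) and in 0.439% of all 27305 promoters. Its shorter form of a pair of units, GAANNTTC, which the strict form contains, was in 11 of 65 (16.9%) and in 5.85% of all. The endoplasmic reticulum stress element, CCAAT and CCACG set 9 bases apart, was in 2 of 65, those of HSPA5 and HSP90B1, and in 0.0806% of all. Capitals mark the matches in the stretches that follow, each written 5′ to 3′ on the strand of its gene.
HSPA1A (chr6:31815417-31815464, plus strand): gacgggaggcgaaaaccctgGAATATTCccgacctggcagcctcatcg
HSPA1B (chr6:31827613-31827660, plus strand): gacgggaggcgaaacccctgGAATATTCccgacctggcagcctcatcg
HSPA6 (chr1:161524446-161524498, plus strand): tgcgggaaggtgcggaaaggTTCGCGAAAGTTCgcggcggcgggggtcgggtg
HSPB1 (chr7:76302471-76302518, plus strand): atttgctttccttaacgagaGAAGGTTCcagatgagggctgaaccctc
DNAJA1 (chr9:33025055-33025102, plus strand): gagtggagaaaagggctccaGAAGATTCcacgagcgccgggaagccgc
HSPA8 (chr11:123062159-123062386, minus strand): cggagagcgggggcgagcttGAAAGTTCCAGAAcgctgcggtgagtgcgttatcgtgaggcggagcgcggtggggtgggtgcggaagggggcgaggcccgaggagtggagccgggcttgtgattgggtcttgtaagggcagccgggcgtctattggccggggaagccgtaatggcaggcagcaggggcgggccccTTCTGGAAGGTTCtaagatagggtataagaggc
HSPA5 (chr9:125241371-125241429, minus strand): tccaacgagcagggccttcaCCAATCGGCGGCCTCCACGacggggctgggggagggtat
HSP90B1 (chr12:103930196-103930359, plus strand): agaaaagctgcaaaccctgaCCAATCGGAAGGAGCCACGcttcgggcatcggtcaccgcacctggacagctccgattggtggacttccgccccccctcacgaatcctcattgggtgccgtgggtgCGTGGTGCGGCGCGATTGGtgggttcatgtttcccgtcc
The HSPA1A and HSPA1B stretches of 48 bases differ at 1 base, A15C, counted from the 5′ end with the HSPA1A base first. The HSPA8 stretch has 2 matches to the strict element and the HSP90B1 stretch 2 to the endoplasmic reticulum element. A match is only a description of the letters and shows neither binding nor activity. The letters and the heat shock response list used further on overlap in part. GAANNTTC was in the windows of DNAJB6, DNAJB7, HSPA1L, HSPB6 and HSPB8, which are not on that list. The HSPA1L and HSPA1A windows overlap and their match is the same site, counted for both genes. DNAJB1, HSPH1, HSP90AA1, HSP90AB1, HSPD1 and HSPE1 are on the list without a match in the windows searched. That does not show that these genes lack a heat shock element, in those windows or in other promoters. Only exact matches counted, and pairs in the order TTCNNGAA alone were not searched.

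Values were the FPKM that the authors deposited, a level per length of gene. That length can exceed the longest transcript, unequally between genes. It is 4849 bases for HSPA8, whose longest transcript has 2463, while both are 3908 for HSPA5. Levels, ranks, shares and ratios between genes depend on these lengths, while a gene's comparison between the groups does not. They gave back reads that summed to 15289213 to 17209736 per MST3 library and 17296201 to 17708029 per vector library. STK24, the overexpressed gene, had 63.7, 72.2 and 76.0 FPKM in the MST3 libraries, against 17.1, 17.4 and 17.4 FPKM in the vector libraries, and was the 1 gene of 13036 to pass limma on log2(FPKM + 1) (adjusted p = 0.000998). MST3 replicates 1 and 3 stood apart from the other libraries. Across genes, which are not independent replicates, the log2 deviation of MST3 replicate 3 from the vector mean had r = 0.581 with GC content and that of MST3 replicate 1 had r = -0.287 with log2 gene length. In the vector libraries, each set against the other 2, r with GC content lay between -0.278 and 0.162. The part of these trends in single members was not tested. Of 7 colon epithelial markers, EPCAM, KRT8, KRT18, KRT19, CDH1 and CDX2 were above the expression filter and VIL1 was at or near 0 in all 6 libraries. Of 8 markers of blood, endothelial and fibroblast cells COL1A1 alone passed it, at 3.93 to 4.97 FPKM in MST3 and 3.72 to 4.60 FPKM in vector libraries, while PTPRC, CD3E, LUM and COL1A2 were at or near 0.

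No heat shock protein or DNAJ mRNA passed the test between MST3 and vector cells, by limma with adjustment over all 13036 genes. The 57 members with a mean of at least 1 FPKM over the 6 libraries were tested and 18 lay below that filter. Of the 57, 0 passed (smallest adjusted p = 0.719), where 0.00767% of all tested genes passed. At an unadjusted p under 0.05 there were 0 members, against 5.38% of all tested genes, 3.51% higher and 1.86% lower in MST3 cells. On the reads, limma voom called 0 members too, with 2 at an unadjusted p under 0.05 (DNAJB2 and DNAJC14), where 0.00767% and 6.65% of all tested genes were so placed. The log2 difference was above 0 for 22 and below 0 for 35 members, with a median of -0.04 and a range of -0.21 to 0.30. Over all tested genes it was above 0 for 6069 and below 0 for 6967, with a median of -0.01. That member median is 0.01 without MST3 replicate 3 and after removal of the length and GC trends.

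The intervals of the differences show what sizes the spread between these libraries leaves room for. They rest on the same spread as the p-values, which may be only technical, and are not adjusted for the number of genes. They therefore set no bound on a difference between separate cultures. On the log2(FPKM + 1) scale the whole 95% interval was less than 0.5 from 0 for 53 of 57 members (93.0%), against 74.4% of all tested genes. It was less than 1 from 0 for all 57, against 94.2% of all tested genes. The groups did not overlap for 2 of the 57 tested members, DNAJC27 and DNAJC16, both lower in the MST3 libraries, where 6.7% of all tested genes were so arranged. In the other direction there were 0 of the 57, where 5.19% of all tested genes were so arranged. The 5 members with a log2 difference of at least 0.2 in size were DNAJB2, DNAJC14 and HSPA1B on the higher side and DNAJC13 and DNAJC27 on the lower side. At 0.3 or more there were 0 members, with DNAJB2 nearest at 0.2975. These sizes depend on the scale. With a pseudocount of 0.1, 3 members reached 0.3 and 43 intervals were less than 0.5 from 0. By voom 4 members reached 0.3 and 48 intervals were that near, and the lowest such count over all settings was 39, without vector replicate 1. All 57 intervals were less than 1 from 0 in each of the 16 alternatives.

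**Figure D1:**
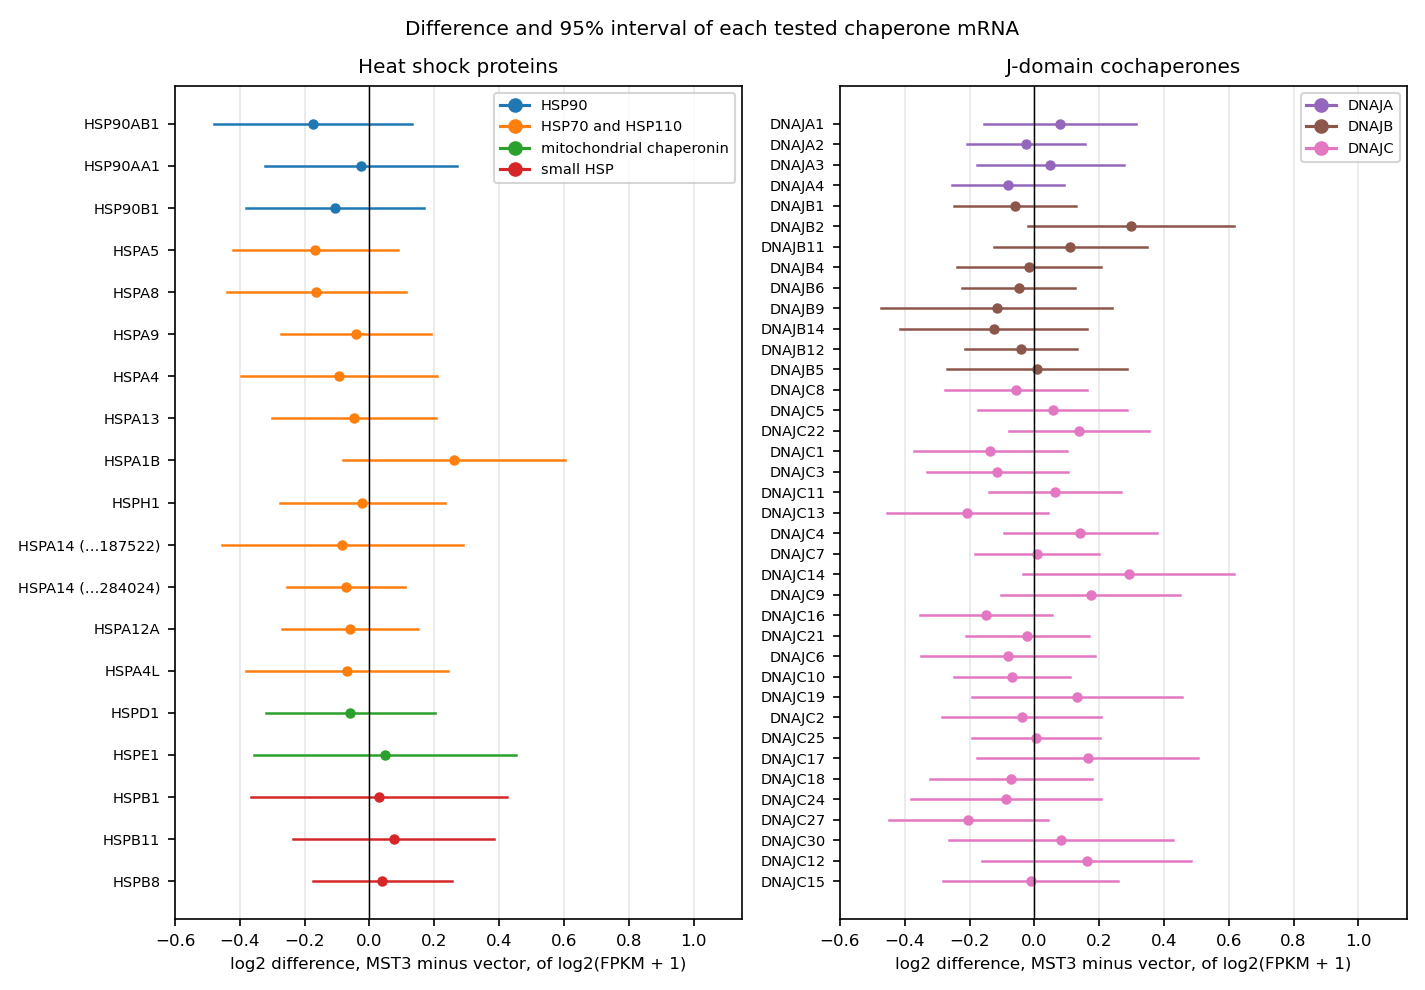
Log2 difference (MST3 minus vector, log2(FPKM + 1)) of the 57 tested members by limma, as points with 95% intervals, coloured by family and ordered by level within each family. Every interval includes 0, and the values run from -0.21 for DNAJC13 to 0.30 for DNAJB2.

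The families differed far more in level than between the groups. Of the summed FPKM of all members, the HSP90 family made up 60.1%, the HSP70 and HSP110 family 18.0%, HSPD1 with HSPE1 7.27% and the small heat shock proteins 5.47%. The J-domain classes were at 1.86% for DNAJA, 2.65% for DNAJB and 4.62% for DNAJC, although the last holds 29 of the 75 entries. The 7 members above 100 FPKM (HSP90AB1, HSP90AA1, HSPA5, HSP90B1, HSPD1, HSPA8 and HSPB1) made up 85.6% of the sum. All members together came to 3628 ± 350 FPKM in MST3 and 3888 ± 178 FPKM in vector libraries (SD, n = 3 each), a ratio of 0.933. The difference is smaller than the SD of the MST3 libraries.

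**Figure D2:**
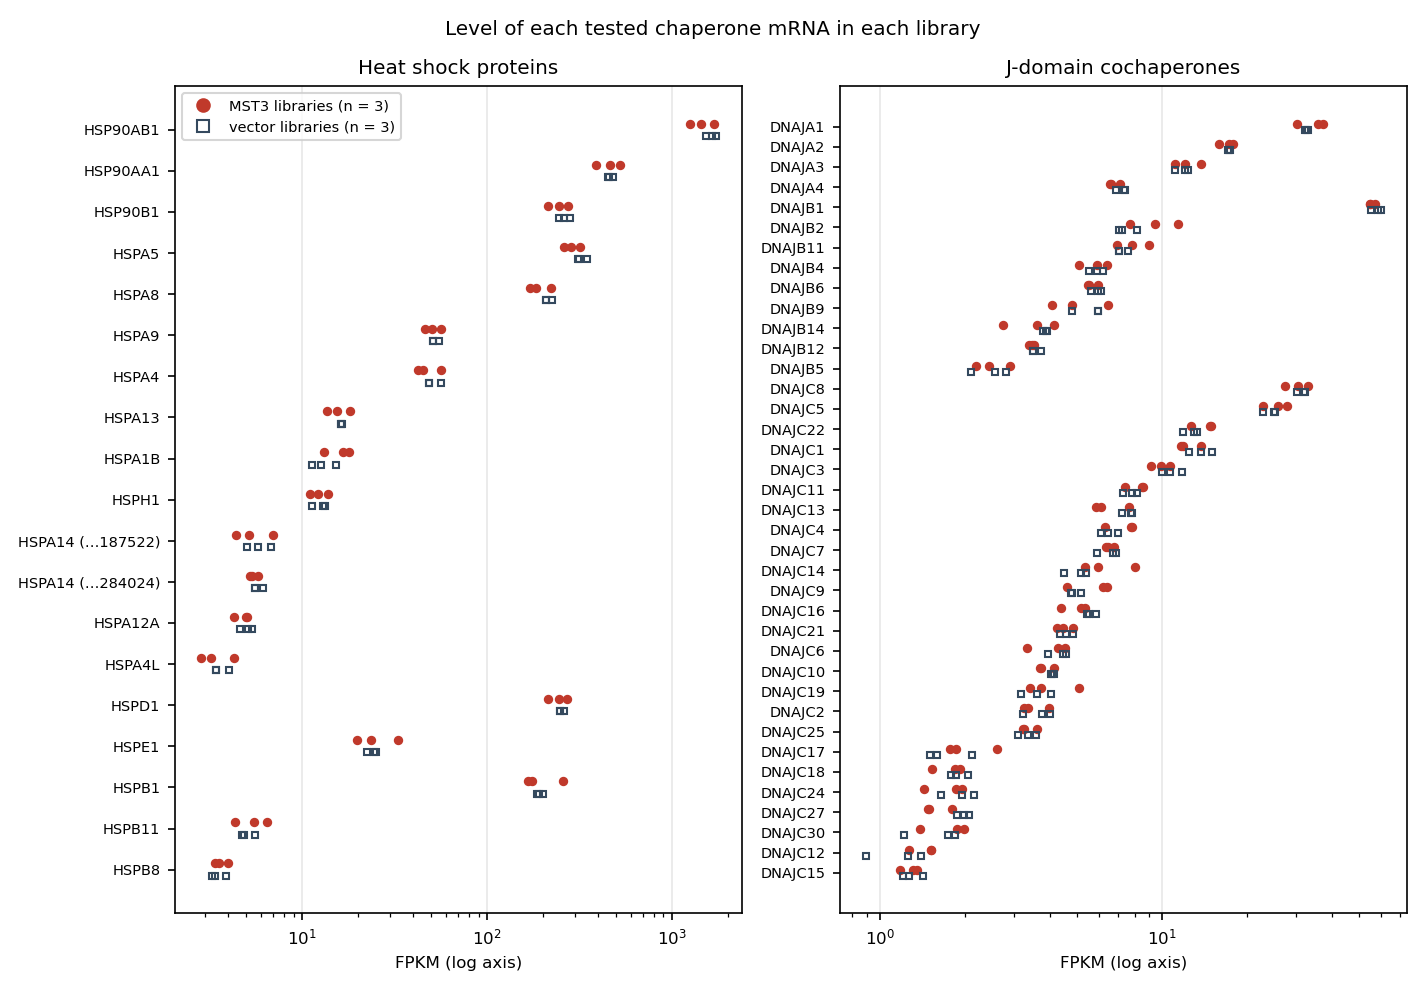
FPKM of each tested member in each library on a log axis, filled circles for the 3 MST3 libraries and open squares for the 3 vector libraries, heat shock proteins on the left and J-domain proteins on the right. Levels range from 1.29 FPKM for DNAJC15 to 1546 FPKM for HSP90AB1, as means of the 6 libraries, and the groups overlap for all but DNAJC27 and DNAJC16.

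HSP90AB1 (ENSG00000096384, chr6:44246166-44253888 on the plus strand of GRCh38), the constitutive cytosolic HSP90, was the most abundant member. It had 1256, 1679.5 and 1433 FPKM in MST3 replicates 1 to 3, against 1526, 1739 and 1641 FPKM in vector replicates 1 to 3. MST3 replicates 1 and 3 lay below all vector libraries and replicate 2 lay among them. Its log2 difference was -0.18 (SE 0.13, 95% interval -0.48 to 0.13; adjusted p = 0.726 by limma), from a mean of 73272 reads per MST3 library. Leaving out MST3 replicate 1 gave -0.074, and leaving out MST3 replicate 2 gave -0.28. HSP90AA1, the inducible cytosolic form, had 461, 525 and 388 FPKM in MST3 and 451, 480 and 458 FPKM in vector libraries. Its MST3 values spread to both sides of the vector values, with a log2 difference of -0.03 that is 0.09 without MST3 replicate 3. HSP90B1, the HSP90 of the endoplasmic reticulum also called GRP94, had 245, 274 and 214 FPKM in MST3 and 245, 279.7 and 262 FPKM in vector libraries. The groups overlapped here too, with a log2 difference of -0.11 (95% interval -0.38 to 0.17). That value was -0.016 without MST3 replicate 3, -0.19 without MST3 replicate 2, -0.060 without vector replicate 2 and -0.033 after removal of the length and GC trends. The ratio of HSP90AB1 to HSP90AA1 FPKM was 2.73, 3.20 and 3.69 in MST3 and 3.39, 3.62 and 3.58 in vector libraries.

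The HSP70 and HSP110 family had 11 tested members, with HSPA14 counted under 2 overlapping identifiers, both below 0. Of the 11, 1 had a log2 difference above 0 and 10 below 0, where 6967 of 13036 tested genes were below 0. The median of the family was -0.07. That median was -0.13 without MST3 replicate 2, -0.01 without MST3 replicate 3, -0.02 without vector replicate 2 and -0.005 after removal of the length and GC trends, and 0 of the 11 passed the test. HSPA5, the HSP70 of the endoplasmic reticulum also called BiP, had 262, 320.1 and 284 FPKM in MST3 and 309, 348 and 315 FPKM in vector libraries. MST3 replicates 1 and 3 again lay below all vector libraries, while replicate 2 lay among them (log2 difference -0.17, SE 0.11, 95% interval -0.42 to 0.09, and -0.10 without MST3 replicate 1). HSPA8, the constitutive HSC70 that also uncoats clathrin vesicles, had 172, 223 and 184 FPKM in MST3 and 209, 226 and 209 FPKM in vector libraries. It had the same arrangement, with a log2 difference of -0.16 (SE 0.12, adjusted p = 0.724 by limma). Leaving out MST3 replicate 1 gave -0.085, and leaving out MST3 replicate 2 gave -0.27. HSPA9, the mitochondrial HSP70 that pulls in imported chains, had 50.6, 56.1 and 46.0 FPKM in MST3 and 51.0, 54.9 and 51.1 FPKM in vector libraries. Its log2 difference was -0.04, and 0.03 without MST3 replicate 3.

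HSPA1B (ENSG00000204388, chr6:31827735-31830255 on the plus strand of GRCh38), the stress-inducible HSP70, was the member of this family with the smallest p. It had 16.6, 13.1 and 18.0 FPKM in MST3 and 12.7, 11.3 and 15.3 FPKM in vector libraries. MST3 replicates 1 and 3 were above all vector libraries, and MST3 replicate 2 was below vector replicate 3. The log2 difference was 0.26 (SE 0.15, 95% interval -0.08 to 0.60, adjusted p = 0.719 by limma), with a mean of 673 reads in MST3 and 574 reads in vector libraries. It was 0.17 without MST3 replicate 3, 0.17 without vector replicate 2 and 0.14 after removal of the length and GC trends. It was larger without MST3 replicate 2, at 0.39, and without vector replicate 3, at 0.37. HSPA1A, which encodes the same protein, had 1.29, 0.788 and 1.03 FPKM in MST3 and 0.802, 0.869 and 1.06 FPKM in vector libraries and lay below the filter. The genes are near copies on chromosome 6, and 69.9% of the 100-base words of the longest HSPA1A transcript occur in HSPA1B, so the division of reads between them is uncertain. Summed over both genes the level was 17.9, 13.9 and 19.0 FPKM in MST3 and 13.5, 12.1 and 16.3 FPKM in vector libraries, a mean of 16.9 ± 2.67 against 14.0 ± 2.13 (SD, n = 3 each). HSPA6, the human HSP70 that is silent unless cells are stressed, had 1 read in all 6 libraries, in MST3 replicate 2. HSPH1, the inducible HSP110, had 11.0, 13.9 and 12.1 FPKM in MST3 and 13.3, 13.0 and 11.3 FPKM in vector libraries, which overlap throughout (log2 difference -0.02, and 0.05 without MST3 replicate 1).

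Neither mRNA of the mitochondrial chaperonin pair passed the test. HSPD1, the chamber, had 245, 272 and 214 FPKM in MST3 and 249, 261 and 249 FPKM in vector libraries (log2 difference -0.06, 95% interval -0.32 to 0.20, and 0.03 without MST3 replicate 3). HSPE1, the lid, had 32.9, 23.7 and 19.8 FPKM in MST3 and 22.6, 25.2 and 24.5 FPKM in vector libraries. MST3 replicate 1 was the highest of the 6 libraries and replicate 3 the lowest, and the log2 difference of 0.05 is -0.15 without MST3 replicate 1. The ratio of HSPE1 to HSPD1 FPKM was 0.134 in MST3 replicate 1, 0.0869 and 0.0927 in MST3 replicates 2 and 3, and 0.0907 to 0.0986 in the vector libraries. HSPE1 shares 14.2% of its exon bases with HSPD1 on the opposite strand, and the strand setting is not given in the sources used here. Its 26 pseudogene entries held 152 reads in all libraries together, 3.04% as many as HSPE1 itself, while the pseudogene entries of HSPD1 held 1.14% and those of HSP90AB1 0.266% as many as their parents.

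Small heat shock proteins were represented by 3 tested members of 9. HSPB1, the abundant HSP27 that holds unfolded chains and associates with actin, had 168, 175 and 258 FPKM in MST3 and 201, 191 and 186 FPKM in vector libraries. MST3 replicate 3 was the highest library, while MST3 replicates 1 and 2 lay below all vector libraries. The log2 difference was 0.03 (SE 0.17, 95% interval -0.37 to 0.42), and it was -0.17 without MST3 replicate 3. HSPB1 had the highest GC content of the 57 tested members, at 64.3%. HSPB8, which works with the cochaperone BAG3 in selective autophagy, had 3.40, 3.54 and 3.96 FPKM in MST3 and 3.40, 3.88 and 3.25 FPKM in vector libraries. HSPB11, an intraflagellar transport subunit that carries the family name, had 6.47, 5.48 and 4.33 FPKM in MST3 and 5.56, 4.87 and 4.75 FPKM in vector libraries. The groups overlapped for both, and the log2 difference was 0.04 for HSPB8. For HSPB11 it was 0.07, and -0.04 without MST3 replicate 1. HSPB2, HSPB6, HSPB7 and HSPB9 had at most 0.441 FPKM in any library and HSPB3 was at 0 in all 6.

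**Figure D3:**
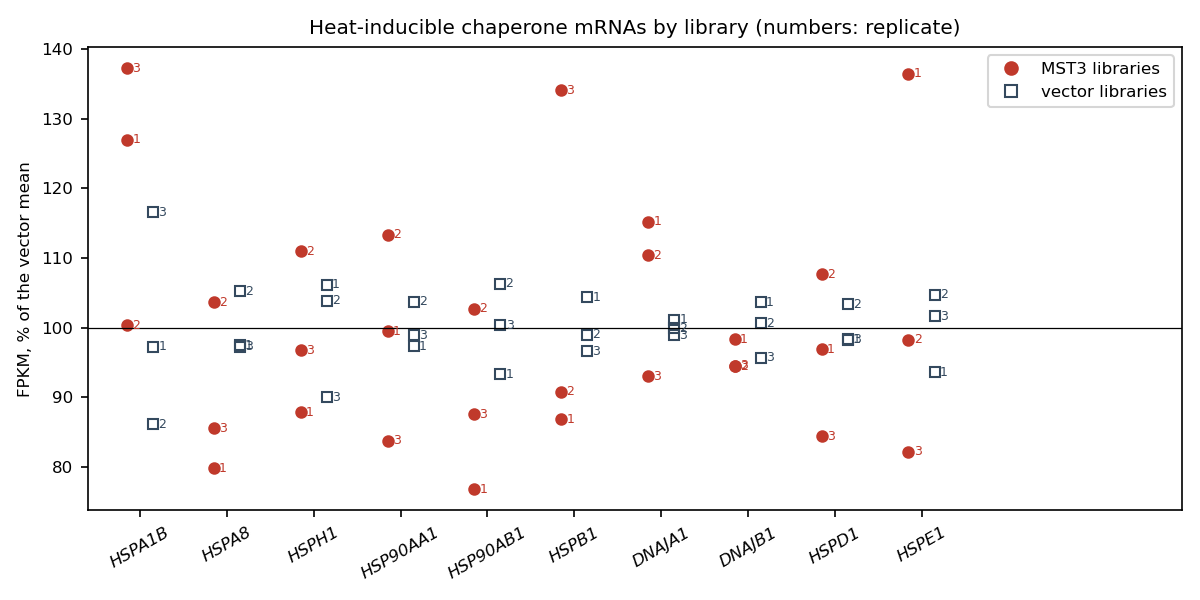
FPKM of the 10 tested heat shock response genes in each library as a percentage of the mean of the 3 vector libraries, filled circles for MST3 and open squares for vector libraries, with replicate numbers. MST3 replicate 3 is highest for HSPA1B and HSPB1, MST3 replicate 1 is highest for HSPE1 and lowest for HSP90AB1 and HSPA8, and MST3 replicate 2 lies near the vector libraries for HSPA1B, HSPA8 and HSP90AB1.

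The heat shock response list has 12 genes (HSPA1A, HSPA1B, HSPA6, HSPA8, HSPH1, HSP90AA1, HSP90AB1, HSPB1, DNAJA1, DNAJB1, HSPD1 and HSPE1), some of them also abundant without stress. Of its 10 tested members 4 had a log2 difference above 0 and 6 below 0, with a median of -0.02 and 0 passing the test. DNAJB1, the HSP40 that HSF1 induces, had 56.9, 54.6 and 54.7 FPKM in MST3 and 59.9, 58.2 and 55.3 FPKM in vector libraries. Its level was 55.4 ± 1.29 against 57.8 ± 2.33 FPKM (SD, n = 3 each), and its log2 difference was -0.06 (95% interval -0.25 to 0.13). DNAJA1, the inducible class A protein, had 37.4, 35.9 and 30.2 FPKM in MST3 and 32.8, 32.5 and 32.1 FPKM in vector libraries, with MST3 replicate 3 as the lowest library. Its log2 difference was 0.08 (95% interval -0.15 to 0.31), and 0.019 without MST3 replicate 1. By the letters of the window searched for each gene, the 6 tested members with GAANNTTC had a median log2 difference of 0.03. The 45 with a searched window that lacks it had -0.04. For the strict element the median was -0.11 over the 2 tested members with it and -0.03 over the 49 without.

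Class A and B J-domain proteins, the general partners of HSP70, overlapped between the groups for every one of their 13 tested members. Of all tested genes 11.9% did not overlap, counting both directions. DNAJA2 had 17.0 ± 0.995 FPKM in MST3 and 17.3 ± 0.0908 FPKM in vector libraries (SD, n = 3 each), and DNAJA3, the mitochondrial class A protein, 12.3 ± 1.31 against 11.9 ± 0.673 FPKM. DNAJA4 had 7.09, 6.59 and 6.54 FPKM in MST3 and 7.39, 7.32 and 6.87 FPKM in vector libraries, with a log2 difference of -0.08 (95% interval -0.25 to 0.09). DNAJB2 (ENSG00000135924, chr2:219279267-219286900 on the plus strand of GRCh38), which carries ubiquitin-interacting motifs and steers clients to the proteasome, had the smallest p of all members. It had 11.4, 7.70 and 9.43 FPKM in MST3 and 7.25, 7.04 and 8.15 FPKM in vector libraries. MST3 replicates 1 and 3 were above all vector libraries and MST3 replicate 2 was below vector replicate 3. The log2 difference was 0.30 (SE 0.14, 95% interval -0.02 to 0.62, adjusted p = 0.719 by limma). It was 0.17 without MST3 replicate 1, and larger without MST3 replicate 2, at 0.43, and by voom, at 0.36. DNAJB11, the class B protein of the endoplasmic reticulum, had 9.01, 7.81 and 6.92 FPKM in MST3 and 7.06, 7.57 and 7.04 FPKM in vector libraries, with a log2 difference of 0.11 that was 0.024 without MST3 replicate 1 and larger, at 0.19, without MST3 replicate 3. The J-domain mRNAs summed over classes A, B and C came to 0.599, 0.471 and 0.537 FPKM per FPKM of HSP70 and HSP110 in MST3 libraries, and to 0.499, 0.458 and 0.497 in vector libraries.

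Class C, the J-domain proteins with specialised tasks, had 25 tested members of 29, with 12 above and 13 below 0 and a median log2 difference of -0.01. DNAJC14, an endoplasmic reticulum protein linked to dopamine receptor export, had 8.001, 5.36 and 5.93 FPKM in MST3 and 5.16, 4.50 and 5.40 FPKM in vector libraries. MST3 replicate 1 stood highest and MST3 replicate 2 was just below vector replicate 3. The log2 difference of DNAJC14 was 0.29 (SE 0.14, 95% interval -0.04 to 0.62, adjusted p = 0.719 by limma). Without MST3 replicate 1 it was 0.14, without MST3 replicate 2 it was 0.40, and by voom 0.37. Its exons share 23.2% of their bases with a readthrough entry on the same strand and 22.0% with ORMDL2 on the opposite strand. DNAJC27 (ENSG00000115137, chr2:24943636-24972094 on the minus strand of GRCh38), which also carries a Rab-like GTPase domain, had 1.49, 1.48 and 1.81 FPKM in MST3 and 1.88, 1.99 and 2.08 FPKM in vector libraries. All 3 MST3 libraries were below all vector libraries, by a log2 difference of -0.20 (95% interval -0.45 to 0.04, adjusted p = 0.719 by limma), from means of 151 reads in MST3 and 194 reads in vector libraries. It was -0.12 after removal of the length and GC trends and -0.26 without MST3 replicate 3. DNAJC16 (ENSG00000116138, chr1:15526813-15592379 on the plus strand of GRCh38), a membrane protein of the endoplasmic reticulum, had 4.39, 5.32 and 5.18 FPKM in MST3 and 5.83, 5.54 and 5.44 FPKM in vector libraries. These groups did not overlap either, and the log2 difference was -0.15 (95% interval -0.35 to 0.05). It was -0.078 without MST3 replicate 1 and -0.057 after removal of the length and GC trends.

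DNAJC13, an endosomal protein that works with retromer, had the lowest difference of the 57 members on the log2(FPKM + 1) scale. As a ratio of mean FPKM, MST3 over vector, DNAJC27 was lower, at 0.804 against 0.854 for DNAJC13. The DNAJC13 values were 5.82, 7.63 and 6.06 FPKM in MST3 and 7.21, 7.80 and 7.86 FPKM in vector libraries. MST3 replicate 2 overlapped the vector libraries and the other 2 did not (log2 difference -0.21, 95% interval -0.46 to 0.04). DNAJC8, a protein of the splicing machinery, was the most abundant, at 30.3 ± 2.79 FPKM in MST3 and 31.5 ± 1.16 FPKM in vector libraries (SD, n = 3 each). DNAJC5, the cysteine string protein of secretory vesicles, had 25.5 ± 2.51 against 24.4 ± 1.27 FPKM. DNAJC22 had 14.9, 12.7 and 14.8 FPKM in MST3 and 13.0, 11.9 and 13.3 FPKM in vector libraries, with a log2 difference of 0.14. DNAJC9, a histone chaperone of dividing cells, had 6.39, 4.60 and 6.17 FPKM in MST3 and 4.82, 5.18 and 4.75 FPKM in vector libraries, with MST3 replicate 2 lowest of all 6. It shares 24.0% of its exon bases with FAM149B1 on the opposite strand.

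By compartment, the endoplasmic reticulum list (HSPA5, HSP90B1, HSPA13, DNAJB9, DNAJB11, DNAJC1, DNAJC3, DNAJC10, DNAJC16 and DNAJC25) had 2 members above and 8 below 0. The list does not hold every member found there: DNAJC14, at 0.29, is not on it. The median log2 difference of the list was -0.11, and it was -0.18 without MST3 replicate 2, -0.07 without MST3 replicate 1, -0.03 without MST3 replicate 3, -0.06 without vector replicate 2 and -0.03 after removal of the length and GC trends. None of the 10 passed the test by limma, with 0 at an unadjusted p under 0.05 and 0 by voom. The summed FPKM of the list was 569, 664 and 558 in MST3 and 618, 698 and 643 in vector libraries. MST3 replicate 2 lay among the vector libraries and the other 2 below them. HSPA5 and HSP90B1, whose promoters hold the endoplasmic reticulum stress element shown above, had log2 differences of -0.17 and -0.11, while DNAJB9, a target of the unfolded protein response, had 4.82, 6.45 and 4.07 FPKM in MST3 and 4.79, 5.94 and 5.96 FPKM in vector libraries. The mitochondrial list had 5 members above and 3 below 0 of 8 tested, with a median of 0.05 that is -0.02 without MST3 replicate 1.

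**Figure D4:**
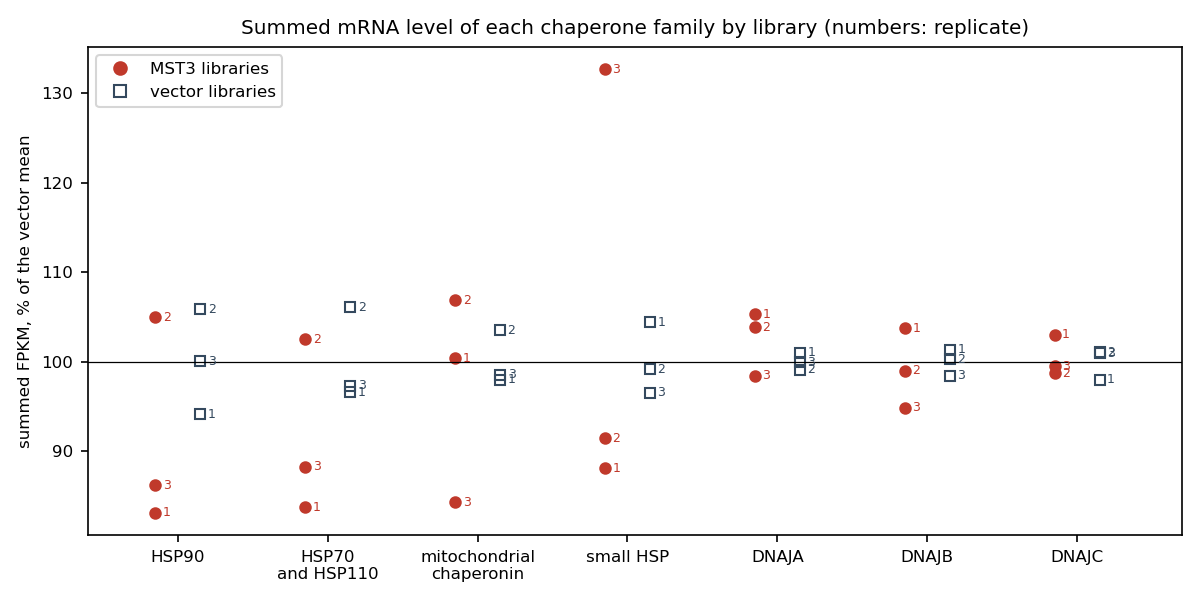
Summed FPKM of each family in each library as a percentage of the mean of the 3 vector libraries, filled circles for MST3 and open squares for vector libraries, with replicate numbers. MST3 replicates 1 and 3 lie below all vector libraries for HSP90 and for HSP70 with HSP110 and replicate 2 lies among them, and the J-domain classes stay close to the vector mean.

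The summed levels by library follow the same arrangement. The HSP90 family summed to 1962, 2478 and 2035 FPKM in MST3 and to 2222, 2499 and 2362 FPKM in vector libraries, a ratio of means of 0.914. The HSP70 and HSP110 family summed to 592, 725 and 624 FPKM in MST3 and to 683, 749.7 and 688 FPKM in vector libraries, a ratio of 0.915. Both families were lower in MST3 replicates 1 and 3 and not in replicate 2. Without MST3 replicate 2 the ratios were 0.847 and 0.860, and without MST3 replicate 1 they were 0.956 and 0.954. The DNAJC sum was 178, 171 and 172 FPKM in MST3 and 170, 175 and 175 FPKM in vector libraries, a ratio of 1.00.

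The spread between replicates was wider in the MST3 group. The median coefficient of variation of the 57 members was 11.7% over the MST3 libraries and 6.51% over the vector libraries, beside 13.6% and 7.25% for all tested genes. It was larger in the MST3 group for 47 members (82.5%), against 77.1% of all tested genes. Of the 3 MST3 libraries, replicate 3 lay farthest from the vector mean for 28 members, replicate 1 for 23 and replicate 2 for 6. Over all tested genes the shares were 45.1%, 40.3% and 14.6% in the same order.

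The difference moved with GC content. Across the 57 members, which share the 6 libraries, Pearson's r between log2 difference and GC content of the longest transcript was 0.432, and with log2 gene length -0.293, beside 0.331 and -0.195 over 12933 tested genes with a GC value. The 28 members above the median GC content of 45.1% had 17 log2 differences above and 11 below 0, with a median of 0.03. The 29 at or below it had 5 above and 24 below 0, with a median of -0.06. Over all tested genes split at that same GC content the medians were 0.04 and -0.08. After removal of each library's trends with length and GC content the median of the HSP90 family was -0.03 and that of HSP70 and HSP110 was -0.005.

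**Figure D5:**
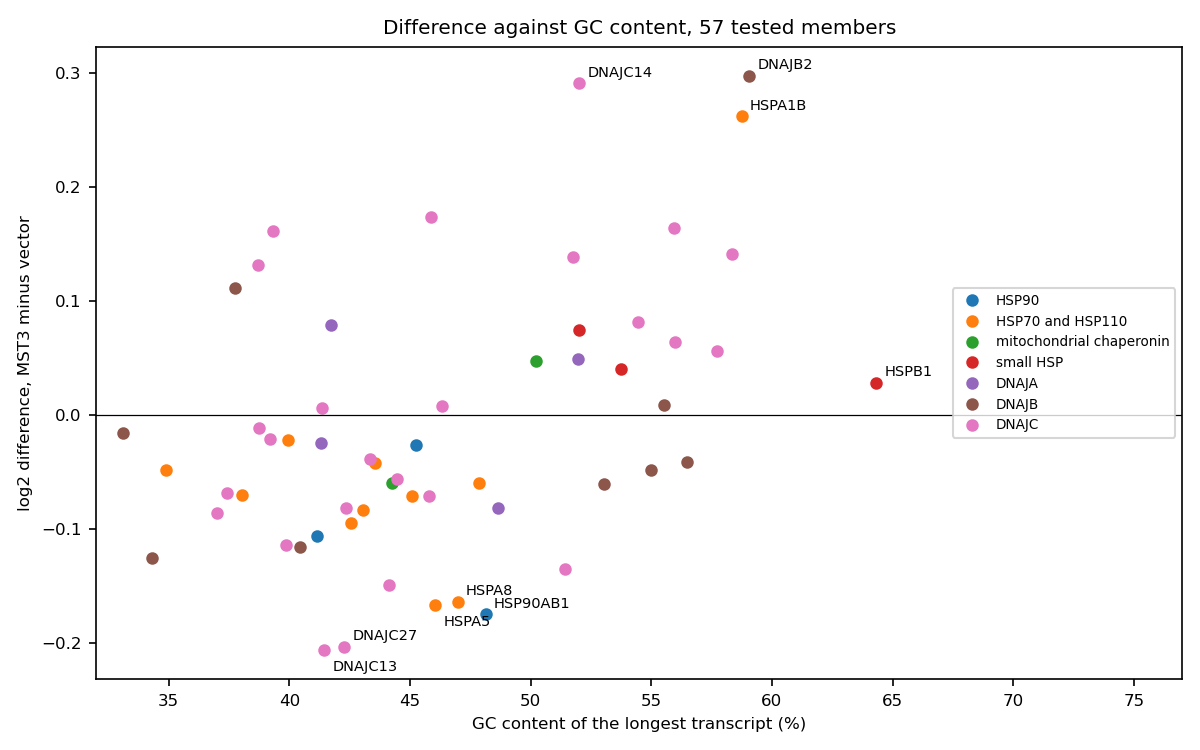
Log2 difference (MST3 minus vector, log2(FPKM + 1)) of the 57 tested members against the GC content of their longest transcript in percent, coloured by family. Members above 50% GC lie mostly above 0, with DNAJB2, DNAJC14 and HSPA1B at 0.26 to 0.30, and the members from 35 to 45% lie mostly below 0.

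The 18 members below the filter were low in both groups. Of these, 3 were at 0 in every library (HSPB3 and both readthrough genes), and 10 had a mean under 0.1 FPKM, these 3 included. HSPA2, best known from male germ cells, had 0.868, 0.588 and 0.899 FPKM in MST3 and 0.896, 0.636 and 0.942 FPKM in vector libraries. HSPA12B, a distant HSP70 relative best known from endothelial cells, was chosen after its values were seen. It had 1.05, 0.658 and 0.759 FPKM in MST3 and 0.469, 0.463 and 0.527 FPKM in vector libraries, from means of 43.3 and 26.7 reads. All 3 MST3 libraries were above all vector libraries. Tested without a filter its log2 difference was 0.29 (adjusted p = 0.781 by limma). With the filter at 0.1 FPKM the adjusted p was 0.773 by limma.

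Partners of the chaperones outside the families were listed for comparison. Of 38 listed genes 36 were tested, 21 with a log2 difference above and 15 below 0, a median of 0.02 and 0 passing limma over all genes. At an unadjusted p under 0.05 there were 2 of 36, CDC37 and STUB1, beside 5.38% of all tested genes. The groups did not overlap for 3 partners higher in the MST3 libraries (AHSA1, FKBP4 and SERPINH1, chosen after their values were seen) and for 1 lower, beside the 5.19% and 6.7% of all tested genes. CDC37, which loads kinases onto HSP90, had 91.7, 71.4 and 88.8 FPKM in MST3 and 69.4, 62.2 and 71.9 FPKM in vector libraries. MST3 replicate 2 lay just below vector replicate 3, and the log2 difference was 0.30 (95% interval 0.01 to 0.58, adjusted p = 0.719 by limma), and 0.18 after removal of the length and GC trends. STUB1, the ubiquitin ligase CHIP that marks HSP70 and HSP90 clients, had 15.5, 12.2 and 21.9 FPKM in MST3 and 11.5, 8.44 and 12.8 FPKM in vector libraries. These groups overlapped as well (log2 difference 0.54, 95% interval 0.02 to 1.06, adjusted p = 0.719 by limma, and 0.33 without MST3 replicate 3), and the GC content of the transcripts was 60.0% for CDC37 and 65.0% for STUB1. HSF1 had 21.3, 24.1 and 31.6 FPKM in MST3 and 23.9, 24.4 and 24.8 FPKM in vector libraries, with MST3 replicates 1 and 3 on opposite sides of the vector values. HSF2, another heat shock factor, had 12.7, 15.4 and 10.6 FPKM in MST3 and 14.1, 16.8 and 15.6 FPKM in vector libraries (log2 difference -0.26, and -0.14 without MST3 replicate 3). GRPEL2, an exchange factor of mitochondrial HSP70, had 12.4, 13.0 and 10.0 FPKM in MST3 and 13.2, 13.9 and 13.4 FPKM in vector libraries, without overlap (log2 difference -0.18, adjusted p = 0.719 by limma, and -0.080 without MST3 replicate 3).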

How the data were processed

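The authors deposited 1 table of FPKM values, with the position and length of each gene. HISAT2 is named per the submitters' processing notes, while counter, strand setting and build are not given there or in the labels. All 75 members have the coordinates of GENCODE 29 on GRCh38. Multiplied by gene length, each library's values step by the worth of 1 read, and 100% came out whole (tolerance 0.01), which gave the reads. limma 3.58.1 (R 4.3.3, intensity trend, two-sided) was run on log2(FPKM + 1), where folds of low genes are understated. Genes averaging 1 FPKM or more (13036) entered, and p-values were adjusted by Benjamini-Hochberg with threshold 0.05. The fit was run on simulated data, which had the same spread in both groups and no length or GC trend. That run therefore does not show how the fit performs with the unequal spread and the trends of these libraries. With 3 libraries a group, an exact permutation test cannot go below 0.1. Tables used Python 3.11.15, pandas 2.3.3 and numpy 2.4.6, and plots matplotlib 3.10.9. GC content is that of the longest GENCODE 29 transcript. Members and lists were chosen with earlier results of these data known. By rule the text names the 3 highest members and the 2 with the smallest p of each family, the heat shock response genes, members without overlap, STK24, HSF1 and the 4 partners with the smallest p. Any other gene named was picked with its values in view. Settings varied were the pseudocount, the filter, scaling, trend, voom, length and GC trends, the replicate block and each library left out.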

Additional observations from a re-analysis of the deposited data

How the results depend on the processing

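Under each of the 16 alternatives 0 members passed limma over all genes and STK24 remained the 1 gene called, the smallest adjusted p of a member being 0.217 (without MST3 replicate 2). Members at an unadjusted p under 0.05, 0 of 57 as reported, were 1 of 65 with a filter of 0.1 FPKM and 0 of 72 without a filter. Of the 57 they were 2 by voom, 3 with the replicate block and 2 with the block after removal of length and GC trends. Leaving out single libraries gave 0 to 8, the 8 without MST3 replicate 2. These 8 were DNAJC13, DNAJC9, DNAJB2, DNAJC4, DNAJC14, HSPA8, HSPA1B and DNAJC22. The log2 difference of DNAJC13 was then -0.31 and that of DNAJC9 0.30. All genes at an unadjusted p under 0.05, 701 of 13036 as reported, were 1190 of 23420 with a filter of 0.1 FPKM and 1462 of 33881 without a filter. They were 1338 of 13036 with the replicate block and 1168 of 12933 with the replicate block and trends removed. With a library left out they were 303 (without vector replicate 2) to 2555 (without MST3 replicate 2). The replicate numbers share no stated source, and same-numbered libraries had deviations correlated at 0.0158, 0.226 and 0.035, so the block rests on numbers alone. The median of DNAJA was 0.046 by voom and 0.056 with trends removed, with or without the block, that of DNAJC 0.030 with trends removed, and that of DNAJA -0.031 to 0.025 with a library left out. Of 496 values of named genes 36 changed sign, none of them called. By voom these were HSP90AA1 0.0069, DNAJA2 0.0068 and HSPH1 0.0094. With trends removed, with or without the block, they were HSP90AA1 0.038, HSPB1 -0.16, HSPA9 0.052, HSF1 -0.066, DNAJC5 -0.0082, DNAJA2 0.053, HSPH1 0.078 and HSPB8 -0.023. With a library left out the ranges were -0.15 to 0.21 for HSPE1, -0.059 to 0.019 for DNAJA2, -0.10 to 0.051 for HSPH1, -0.041 to 0.20 for HSPB11, -0.13 to 0.087 for HSP90AA1, -0.14 to 0.031 for HSPD1, -0.17 to 0.14 for HSPB1, -0.11 to 0.027 for HSPA9, -0.12 to 0.011 for DNAJC8, -0.10 to 0.17 for HSF1, -0.0055 to 0.13 for DNAJC5, -0.026 to 0.11 for DNAJA3 and -0.0098 to 0.098 for HSPB8. The causes were not tested. Depth is lowest for DNAJC12 among the tested members, at a mean of 47.5 reads per library.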
